A study of Mus musculus with 8 samples.

Results

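Megakaryocyte and platelet genes were followed through 8 ATAC-seq peak lists of mouse bone marrow progenitors. The members were 8 genes of the mature platelet: Itga2b, Pf4, Ppbp, Vwf, Gp9, Gp1ba, Gp1bb and Selp. Every peak that overlapped the body of 1 of these genes or the 20 kb on either side was taken (mm10, GENCODE M21), which gave 318 of 501728 deposited peaks. These peaks merged into 74 of the 123260 regions of the series. LSK+ cells (Lin- Sca-1+ c-Kit+, which hold the hematopoietic stem cells) and LSK- cells (Lin- Sca-1- c-Kit+ myeloid progenitors) were sorted from WT females and from XistΔ/Δ females, in which a floxed Xist gene (2lox/2lox, 129Sv4/Jae) had been deleted by Vav-iCre (C57BL/6J). The animals were 4.5 months old and of mixed 129Sv4/Jae and B6 background, about 10000 cells entered each reaction, and each of the 4 groups held 2 libraries. Vav-iCre acts across the blood lineages, and each sort holds progenitors of several lineages. In these bulk libraries, fewer cells with an open site and a less open site in each cell cannot be told apart.

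Platelets are shed by megakaryocytes, which arise from stem cells through progenitors shared with the erythroid lineage and, in part, by a shorter route from stem cells that already carry platelet transcripts. Itga2b (integrin αIIb, CD41) is the fibrinogen receptor subunit and is also present on early progenitors. Gp1ba, Gp1bb and Gp9 encode subunits of the receptor for von Willebrand factor. Pf4 and Ppbp are neighbouring chemokine genes whose products fill the alpha granules, and Vwf and Selp (P-selectin) encode the adhesive cargo of the same granules. The comparison asked where open chromatin at these genes appeared in LSK+ and in LSK- cells, with and without Xist.

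Windows at regions that passed the comparison of the cell types are shown first, as far as they lay outside exons, with the promoters of Pf4 and Gp9. Each line gives the 200 bases of the GRCm38.p6 (mm10) genome around the strongest summit of a region, or the 250 bases before the RefSeq start of a promoter. Capitals mark exact matches on either strand. The letters searched were AGATAA, which GATA factors such as GATA-1 bind, and the related form TGATAA of the same factors. For ETS factors such as FLI1 the letters were AGGAAG, and for RUNX factors such as RUNX1 they were TGTGGT. For NF-E2 and the AP-1 family they were TGAGTCA, and no motif contains another. The first 3 sequences were higher in LSK- and the next 3 were higher in LSK+.
Pf4 +3.2 kb (chr5:90775648-90775847, plus strand): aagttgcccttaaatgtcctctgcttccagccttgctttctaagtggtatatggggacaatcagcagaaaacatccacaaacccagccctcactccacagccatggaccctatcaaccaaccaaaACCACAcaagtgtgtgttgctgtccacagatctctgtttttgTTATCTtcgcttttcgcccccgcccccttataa
Gp9 -2.1 kb (chr6:87775913-87776112, plus strand): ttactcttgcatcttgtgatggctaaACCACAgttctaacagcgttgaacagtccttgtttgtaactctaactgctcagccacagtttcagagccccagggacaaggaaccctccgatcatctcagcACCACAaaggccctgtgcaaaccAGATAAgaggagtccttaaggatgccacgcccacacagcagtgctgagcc
Vwf -5.3 kb (chr6:125541391-125541590, plus strand): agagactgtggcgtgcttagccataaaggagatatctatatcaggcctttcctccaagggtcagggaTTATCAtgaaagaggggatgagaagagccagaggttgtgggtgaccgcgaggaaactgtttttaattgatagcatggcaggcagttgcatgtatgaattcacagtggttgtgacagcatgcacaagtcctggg
Vwf +42.1 kb (chr6:125594918-125595117, plus strand): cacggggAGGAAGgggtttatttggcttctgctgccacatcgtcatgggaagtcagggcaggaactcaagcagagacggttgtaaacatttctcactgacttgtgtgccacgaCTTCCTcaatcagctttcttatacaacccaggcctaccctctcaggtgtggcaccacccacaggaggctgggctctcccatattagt
Pf4 promoter (chr5:90772185-90772434, plus strand): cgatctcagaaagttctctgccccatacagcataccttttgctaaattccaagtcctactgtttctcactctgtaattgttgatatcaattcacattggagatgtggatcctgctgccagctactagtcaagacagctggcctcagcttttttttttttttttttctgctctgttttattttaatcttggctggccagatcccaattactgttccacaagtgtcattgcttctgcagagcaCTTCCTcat
Gp9 promoter (chr6:87777820-87778069, plus strand): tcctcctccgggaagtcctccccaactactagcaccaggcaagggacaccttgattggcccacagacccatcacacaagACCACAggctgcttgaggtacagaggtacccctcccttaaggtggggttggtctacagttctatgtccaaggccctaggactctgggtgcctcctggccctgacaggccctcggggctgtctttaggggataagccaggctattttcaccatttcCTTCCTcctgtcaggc
Each of the first 3 windows held a GATA match and no ETS match, and each of the next 3 held an ETS match, but this split depends on the windows shown. The window at Gp9 +12.9 kb, which was also higher in LSK- and lies in an exon, held 1 GATA and 1 ETS match. The 200-base window at the summit of the Pf4 promoter region, which reaches into exon 1, held 2 GATA matches beside 1 ETS match. The remaining 4 were open in all 8 libraries and are given for comparison.
Vwf +20.4 kb (chr6:125573272-125573471, plus strand): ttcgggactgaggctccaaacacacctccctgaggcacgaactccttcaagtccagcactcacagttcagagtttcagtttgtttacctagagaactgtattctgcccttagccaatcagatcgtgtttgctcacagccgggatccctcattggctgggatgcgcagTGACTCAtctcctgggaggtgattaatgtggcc
Selp +20.3 kb (chr1:164135437-164135636, plus strand): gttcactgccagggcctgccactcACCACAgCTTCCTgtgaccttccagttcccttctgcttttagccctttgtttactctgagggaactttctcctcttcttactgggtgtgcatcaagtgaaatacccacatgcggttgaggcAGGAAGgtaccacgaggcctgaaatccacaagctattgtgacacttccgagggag
Itga2b promoter (chr11:102469884-102470133, minus strand): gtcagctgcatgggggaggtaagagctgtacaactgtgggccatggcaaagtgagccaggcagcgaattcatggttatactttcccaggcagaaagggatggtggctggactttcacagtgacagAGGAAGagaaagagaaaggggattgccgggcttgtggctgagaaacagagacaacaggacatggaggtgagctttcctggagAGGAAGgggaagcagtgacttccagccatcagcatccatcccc
Gp1ba promoter (chr11:70638872-70639121, plus strand): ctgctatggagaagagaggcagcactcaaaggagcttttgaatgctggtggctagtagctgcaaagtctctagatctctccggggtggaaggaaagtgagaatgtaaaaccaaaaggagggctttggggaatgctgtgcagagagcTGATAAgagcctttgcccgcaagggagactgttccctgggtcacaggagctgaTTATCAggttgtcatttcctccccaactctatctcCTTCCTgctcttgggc
The intronic Vwf window carried the only NF-E2 match among these sequences, and the Gp1ba promoter carried 2 GATA matches. Of the 8 genes, 7 were found in the RefSeq promoter table.

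Lists held 29829 to 91590 peaks, so each library was reduced to its 29829 strongest peaks by −log10 p, and a region was described by its percentile among them. A percentile of 100 marks the strongest peak of a library, and 0 means that no peak reached the strongest 29829, not that the site was closed. Among these peaks the members kept 36 regions, of which 30 were held by at least 2 libraries and were tested with the 41778 such regions of the series. The other 6 were held by 1 library each. Of the 30, 6 lay within 3 kb of a TSS of a member (TSS-proximal), 6 lay at the promoter of another gene and 18 were distal, and 10 had a peak in all 8 libraries. In the whole lists, 16 of the 74 regions were held by all 8 libraries, and 20 by a single library, which for 14 of them was LSK- XistΔ/Δ replicate 1, the longest list. Values of 4 libraries are given below in the order WT replicate 1, WT replicate 2, XistΔ/Δ replicate 1, XistΔ/Δ replicate 2.

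**Figure D1:**
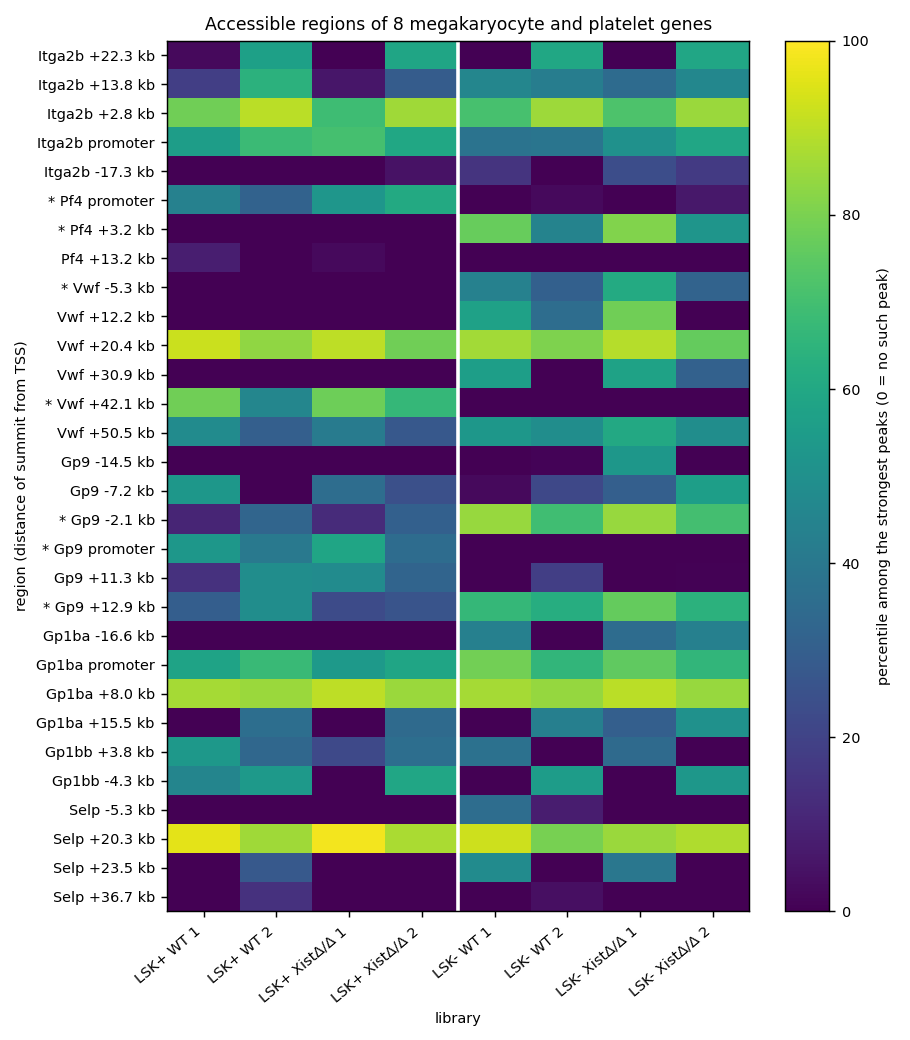
Percentile among the strongest peaks (colour, 0 to 100) of the 30 tested regions (rows, named by gene and by distance of the summit from the nearest TSS of that gene in kb) in the 8 libraries (columns), with LSK+ left and LSK- right of the white line. Stars mark the 7 regions that passed the test between cell types, and the Vwf +20.4 kb, Selp +20.3 kb and Gp1ba +8.0 kb rows are bright in all 8 libraries.

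Between LSK- and LSK+, 7 of the 30 member regions differed (limma, Benjamini-Hochberg adjusted p under 0.05 over all regions), where 9.11% of all regions did. They lay at 3 genes only, Pf4, Gp9 and Vwf, each with a region that ranked higher in LSK- and another that ranked higher in LSK+. The 4 regions higher in LSK- were 13.3% of those tested, where 3.94% of all regions were higher in LSK-. The 3 regions higher in LSK+ were 10.0%, where 5.17% of all regions were higher in LSK+. At 4 of the 7 (Pf4 +3.2 kb, Vwf -5.3 kb, the Gp9 TSS region and Vwf +42.1 kb), only one cell type had a peak among the strongest, so that they entered the test through the group in which they were high and were set against zeros made by the limit on peaks. Their differences among the strongest peaks are given below as descriptions, without a p-value. A whole-list p-value is given only for the Gp9 TSS and Vwf +42.1 kb regions, where it did not pass. In a fit of only the regions listed in all 8 libraries, none of the 10 member regions passed (limma adjusted p = 0.06065 for Gp9 -2.1 kb and 0.0680 for Gp9 +12.9 kb). The 4 libraries of one cell type lay above the 4 of the other at 5 member regions in the LSK- direction (7.73% of all regions) and at 3 in the LSK+ direction (9.24% of all regions).

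Pf4 (ENSMUSG00000029373.7, chr5:90772435-90773383, plus strand) had a promoter that ranked higher in LSK+ and a downstream element that ranked higher in LSK-. The promoter region (chr5:90771367-90772768) has its summit at the TSS, in the non-coding part of exon 1. It stood at 44.1, 31.6, 52.5 and 60.7 in LSK+ and at 0, 2.49, 0 and 6.62 in LSK-. The zeros in LSK- were made by the limit on peaks. Among the strongest peaks the groups did not overlap, and the difference was -44.95 percentile points (SE 5.03, limma adjusted p = 0.00701). The downstream region (chr5:90775379-90776109), intergenic and 3.2 kb from the TSS, ran the other way. It had no peak among the strongest in any LSK+ library and stood at 76.9, 44.6, 81.2 and 52.3 in LSK-, a difference of 63.75. In the whole lists the promoter was still called in all 8 libraries, with fold enrichments of 6.70 to 16.0 in LSK+ and 5.17 to 8.39 in LSK-. By whole-list percentile its difference was -18.3 (limma adjusted p = 0.509). The downstream element was listed in LSK+ only by both XistΔ/Δ libraries, at whole-list percentiles of 12.3 and 11.8. Its whole-list difference was 73.35, with both LSK+ WT libraries still entered as zeros.

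Ppbp (ENSMUSG00000029372.7, chr5:90768518-90770063), the chemokine gene just upstream of Pf4, shares its window with Pf4, so both elements lie in the Ppbp window too. Its own promoter had no peak among the strongest in any library. In the whole lists it was called in 2 libraries, LSK- WT replicate 1 and LSK- XistΔ/Δ replicate 1, at percentiles of 31.4 and 26.5.

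Gp9 (ENSMUSG00000030054.4, chr6:87778072-87779768, plus strand) likewise had regions whose ranks ran in opposite directions, here within 3 kb of one TSS. The region at the TSS itself (chr6:87777739-87778379) stood at 53.1, 40.2, 58.9 and 35.5 in LSK+ and had no peak among the strongest in LSK-. The difference was -46.9. The region 2.1 kb upstream (chr6:87775726-87776447, intergenic) stood at 10.2, 32.7, 12.5 and 30.7 in LSK+ and at 84.4, 69.2, 84.4 and 70.0 in LSK-. Every LSK- library lay above every LSK+ library there, by 55.5 on average (SE 8.23, limma adjusted p = 0.0145). In the whole lists the TSS region was not called in either LSK- WT library and stood at 25.5 and 9.02 in LSK- XistΔ/Δ, with fold enrichments of 3.08 and 4.001. By whole-list percentile the TSS region differed by -59.6 (limma adjusted p = 0.0519) and the upstream region by 30.9 (limma adjusted p = 0.135), so that neither passed. The upstream region also lost its call without the replicate 1 library of any 1 group (limma adjusted p from 0.0510 to 0.0570).

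Another Gp9 region lay 12.9 kb downstream (chr6:87790650-87791395), in the non-coding part of the last exon of Rab43, a gene for a small GTPase of membrane traffic. It stood at 29.95, 49.1, 22.9 and 25.9 in LSK+ and at 66.4, 62.3, 76.6 and 64.2 in LSK-, which do not overlap. The difference was 35.4 (SE 6.06, limma adjusted p = 0.0220). It was 19.5 by whole-list percentile (limma adjusted p = 0.247), and the call held only without LSK+ WT replicate 2 or LSK- XistΔ/Δ replicate 2 when 1 library was left out (0.0545 to 0.0822 without each of the other 6). A neighbouring region at 11.3 kb, in the same exon, stood at 14.4, 49.0, 48.2 and 32.1 in LSK+ and at 0, 18.5, 0 and 0.493 in LSK-, and did not pass the test (limma adjusted p = 0.110).

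Vwf (ENSMUSG00000001930.17, chr6:125546774-125686679, plus strand) had no TSS-proximal peak among the strongest in any library, and its differences were all distal. The region 5.3 kb upstream (chr6:125540840-125541686, intergenic) had no such peak in LSK+ and stood at 44.1, 30.6, 61.3 and 31.9 in LSK-. The difference was 42.0. In the whole lists LSK+ XistΔ/Δ replicate 1 listed it too, at 10.8, and no other LSK+ library did. The whole-list difference was 66.4. The region in intron 10 (chr6:125594691-125595397), 42.1 kb from the nearest TSS, stood at 78.4, 46.0, 78.1 and 66.5 in LSK+ and at 0 in all 4 LSK- libraries. Its difference was -67.2. In the whole lists this intronic region was still called in 3 of the LSK- libraries, at percentiles of 55.9, 54.4 and 50.0, and the difference fell to -37.9 (limma adjusted p = 0.309).

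Other Vwf regions changed less or less evenly. The region in intron 6 at 20.4 kb (chr6:125572407-125573881) stood at 92.1, 83.5, 90.0 and 78.4 in LSK+ and at 86.0, 80.7, 89.0 and 76.4 in LSK-, so that the groups overlapped (limma adjusted p = 0.792). Regions at 12.2 kb and at 30.9 kb had no peak among the strongest in LSK+, and in LSK- stood at 57.3, 35.8, 78.4 and 0 and at 55.9, 0, 57.5 and 31.0. Neither passed the test, with limma adjusted p = 0.202 and 0.171. The region over exon 14 at 50.5 kb was higher in each LSK- library (48.9 to 60.4) than in any LSK+ library (27.4 to 48.4), again without passing (limma adjusted p = 0.211).

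**Figure D2:**
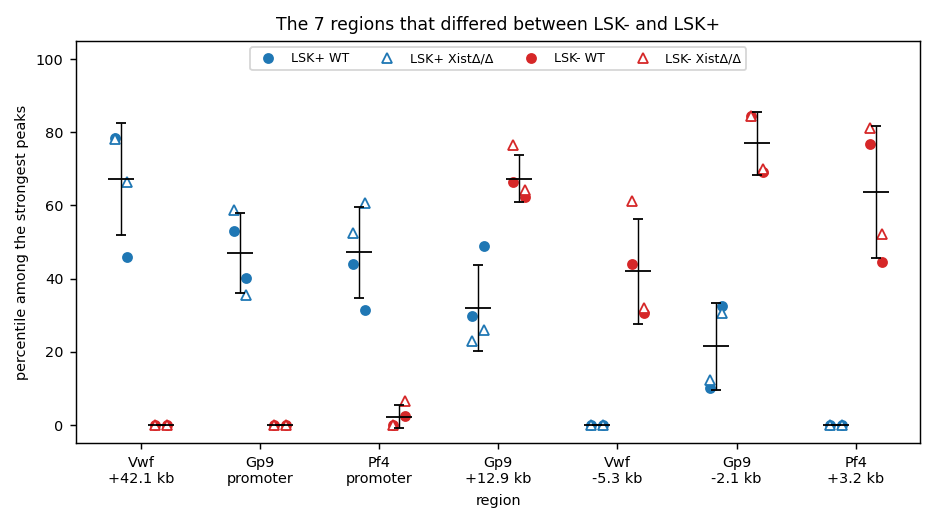
Percentile among the strongest peaks (vertical axis, 0 to 100) in each library at the 7 regions that differed between LSK- and LSK+. Points are libraries, horizontal bars are means and error bars are SD over the 4 libraries of a cell type, and LSK+ and LSK- points do not overlap at any of the 7 regions.

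**Figure D3:**
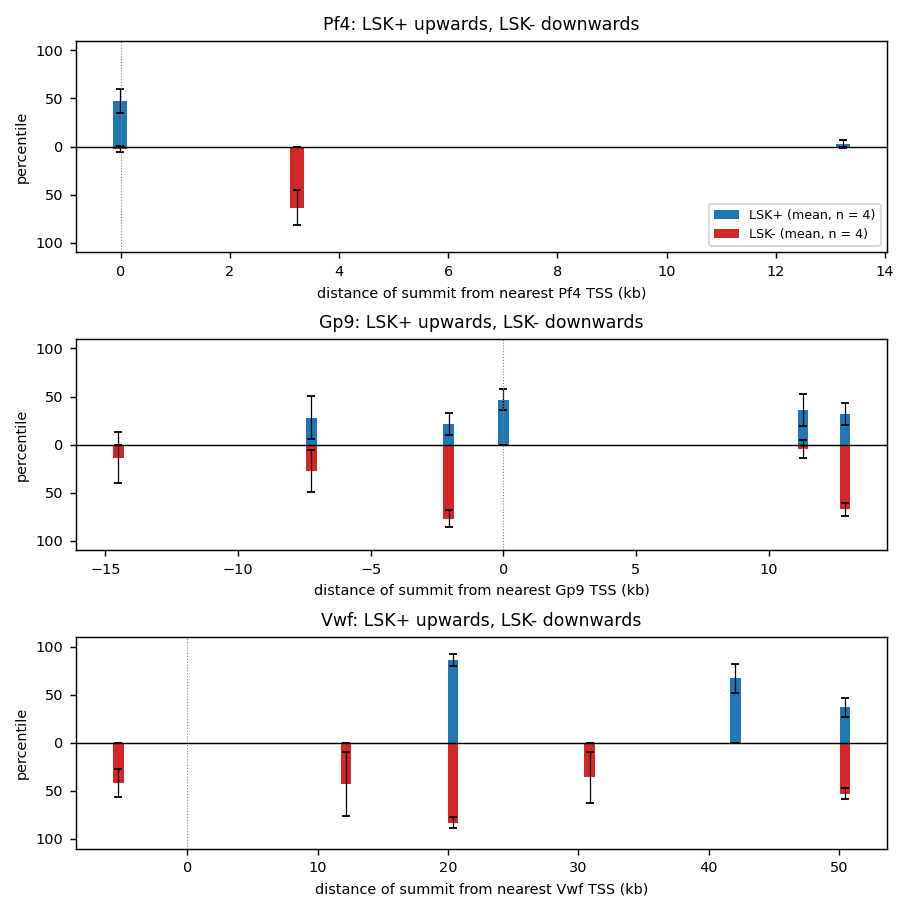
Mean percentile with SD (n = 4 libraries) of the tested regions at Pf4, Gp9 and Vwf against the distance of their summit from the nearest TSS of that gene in kb, with LSK+ upwards and LSK- downwards from 0. At Pf4 and Gp9 the bar at the TSS points to LSK+, while the bars at 3.2 kb (Pf4) and 2.1 kb upstream (Gp9) reach 63.75 and 77.01 in LSK-.

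All 7 differences had the same sign at both replicate numbers, which is fixed where the cell types do not overlap and adds no support. The smallest was 25.8 points, in replicate 2 at the Gp9 +12.9 kb region. The exact two-sided permutation of the cell type labels within genotype gave p = 0.0556 for each of the 7, which is the smallest of its 36 assignments, so that this test cannot pass 0.05. Groups that do not overlap always give this value. Over all deposited peaks, 3 of 54 member regions were called higher in LSK- and 0 higher in LSK+, with the signs of the 7 unchanged. The 3 include Pf4 +3.2 kb and Vwf -5.3 kb, which were set against zeros in LSK+ WT. No share of all regions is given for this setting, so these counts are not set against the series. Without LSK+ WT replicate 1, and likewise without LSK+ XistΔ/Δ replicate 1, no member region was called higher in LSK-. The Pf4 promoter region, with zeros made by the limit on peaks in both LSK- replicate 1 libraries, kept its call without any 1 library. So did the Vwf +42.1 kb region, which was set against zeros in LSK-.

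Itga2b and Gp1ba were open in both cell types. At Itga2b (ENSMUSG00000034664.13, chr11:102453297-102470122, minus strand) the strongest region lay in intron 4, 2.8 kb into the gene (chr11:102466960-102467595). It stood at 78.4, 89.7, 69.1 and 85.7 in LSK+ and at 70.7, 85.4, 72.3 and 85.0 in LSK-, with overlapping groups and a difference of -2.38 (SE 6.83, limma adjusted p = 0.874). The region at the TSS (chr11:102469821-102470619) stood at 55.7, 68.4, 70.5 and 59.7 in LSK+ and at 38.0, 38.8, 50.4 and 59.2 in LSK-. The highest LSK- library lay above the lowest LSK+ library, and the difference of -16.9 (SE 5.35) did not pass (limma adjusted p = 0.121). At Gp1ba (ENSMUSG00000050675.7, chr11:70639122-70642036, plus strand) the promoter stood at 58.1, 67.7, 53.8 and 58.9 in LSK+ and at 78.9, 65.8, 75.5 and 66.0 in LSK-, a difference of 11.9 (SE 5.44, limma adjusted p = 0.261). The strongest region of the Gp1ba window, at 86.7 ± 2.26 in LSK+ and 86.2 ± 2.44 in LSK- (SD, n = 4), lay at the promoters of Slc25a11 and Rnf167, a mitochondrial carrier and a ubiquitin ligase.

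Selp (ENSMUSG00000026580.16, chr1:164115264-164150026, plus strand) had the strongest region of all 8 genes, in an intron and not at its promoter. This region (chr1:164135085-164136226, 20.3 kb from the TSS) stood at 96.1, 85.6, 98.4 and 87.2 in LSK+ and at 92.2, 79.4, 85.0 and 87.9 in LSK- (difference -5.67, SE 5.56, limma adjusted p = 0.576). Gp1bb (ENSMUSG00000050761.4, chr16:18620317-18622403, minus strand) had 1 promoter peak among the strongest, at 2.14 in LSK- XistΔ/Δ replicate 2. Its window also held the Sept5 promoter, which stood at 45.4, 53.8, 0 and 59.0 in LSK+ and at 0, 55.1, 0 and 52.9 in LSK-. All replicate 2 libraries were high there, and only LSK+ WT among the replicate 1 libraries. The Fam171a2 promoter in the Itga2b window likewise stood at 57.0 to 59.5 in replicate 2 and at 0 to 2.73 in replicate 1. At both promoters the replicate number separated more of the libraries than the cell type did.

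Read by promoter, 4 members had a peak among the strongest in at least 2 libraries and 4 did not. Taking the best peak within 3 kb of any TSS, Itga2b, Pf4, Gp9 and Gp1ba could be tested among 13172 protein-coding promoters, and the promoters of Ppbp, Vwf and Selp had no peak among the strongest anywhere. Of all 21755 protein-coding genes, 50.7% to 60.1% had such a peak in a library. Of the 4 promoters, Pf4 differed between the cell types (-44.95, SE 4.17, limma adjusted p = 0.0296), where 0.493% of all promoters did. This call was lost without any 1 of the 8 libraries (limma adjusted p from 0.0646 to 0.160). In whole lists the Selp promoter was called in 5 libraries, at 40.8 in LSK+ WT replicate 1, 46.8 and 7.55 in LSK+ XistΔ/Δ, and 19.1 and 1.98 in LSK- XistΔ/Δ. The Vwf promoter was called in 5 as well, highest at 61.8 in LSK+ XistΔ/Δ replicate 1. That of Gp1bb was called in 6, highest at 53.3 in LSK- XistΔ/Δ replicate 2.

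For Gp9 the width of the promoter window decided the direction. Within 3 kb the upstream element was the best peak in LSK- and the TSS region in LSK+, which gave 30.1 points higher in LSK- (SE 7.67, limma adjusted p = 0.270, and 0.0411 with the replicate number as a block). Within 1 kb only the TSS region remained, and the same gene was 46.9 points lower in LSK-, where it was at 0.

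The promoter whose 8 values were most like those of Pf4, by Pearson correlation over the 8 libraries among 13172 promoters, belonged to Tbxa2r, the thromboxane A2 receptor (r = 0.986). Defb25 (0.973), 1700029H14Rik (0.964), Eya2 (0.963) and Lax1 (0.953) followed. These correlations describe points that share libraries and carry no test.

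Presence and absence gave similar counts in both genotypes. In WT, 4 of 25 member regions were held by both LSK- libraries and neither LSK+ library (12% of all regions), and 2 by both LSK+ and neither LSK- library (9.71%). In XistΔ/Δ the counts were 4 of 24 (8.35%) and 2 of 24 (11.3%). Held by all 4 LSK- and no LSK+ library were 2 regions, Pf4 +3.2 kb and Vwf -5.3 kb (3.94% of all regions). Held by all 4 LSK+ and no LSK- library were 2, the Gp9 TSS region and Vwf +42.1 kb (3.29%).

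No member region differed between XistΔ/Δ and WT in LSK+ or in LSK-, and 0% of all regions did (limma, adjusted p under 0.05). At an unadjusted p under 0.05 there was 1 of 30 in LSK+ (4.76% of all regions) and 0 of 30 in LSK- (2.18%). The 1 region was the Pf4 promoter, which was 18.8 points higher in XistΔ/Δ LSK+ cells (SE 7.11, limma adjusted p = 0.967). It was higher in XistΔ/Δ by 8.42 in replicate 1 and by 29.2 in replicate 2. The difference between the cell type contrasts of the genotypes passed for no member region either, with a smallest limma adjusted p of 1, and 0 of 30 had an unadjusted p under 0.05 (3.24% of all regions). Its estimate was above 0 at 23 of the 30 regions (50.3% of all regions), which all rest on the same 8 libraries. At the 7 regions that differed between cell types the cell types did not overlap, so the sign had to be the same in WT and in XistΔ/Δ. The differences were, for example, 55.4 and 55.6 points at Gp9 -2.1 kb, and -62.2 and -72.3 at Vwf +42.1 kb. For the 4 tested promoters none differed by genotype (limma), where 0% of all promoters did, with 2.2% of all promoters at an unadjusted p under 0.05.

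**Figure D4:**
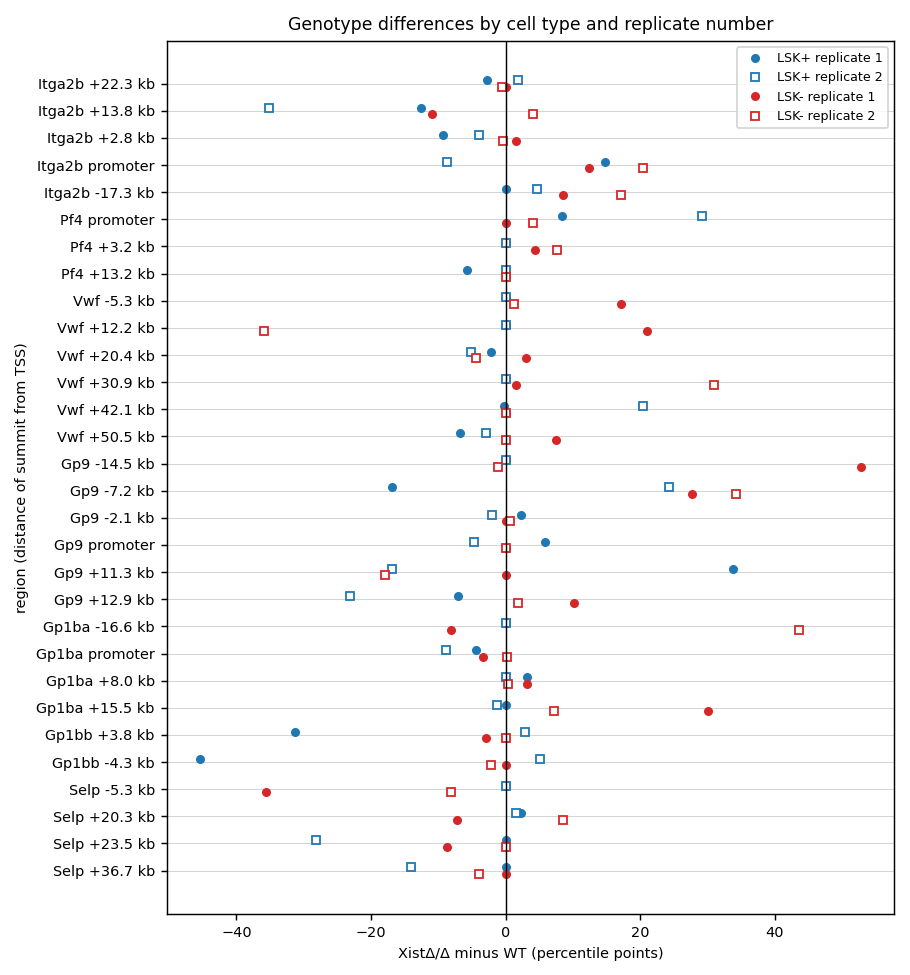
XistΔ/Δ minus WT in percentile points (horizontal axis) at the 30 tested regions, as 1 point for each cell type (blue LSK+, red LSK-) and replicate number (filled 1, open 2). Points lie on both sides of 0, and the replicate numbers give opposite signs at Vwf +12.2 kb in LSK- and Gp9 -7.2 kb in LSK+.

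The motif letters were counted at all members and in the whole series. A GATA match stood in the 200-base window of all 4 member regions higher in LSK-, of 1 of the 3 higher in LSK+ (the Pf4 promoter region) and of 6 of the 23 that did not pass. An ETS match stood in all 3 regions higher in LSK+, in 1 of the 4 higher in LSK- (Gp9 +12.9 kb) and in 13 of the 23 others. Over the series, GATA letters were in 27.1% of 25058 distal windows, in 68.1% of the 1303 that were higher in LSK- and in 12.6% of the 1759 that were higher in LSK+. ETS letters were in 47.1%, 32.9% and 63.7% of the same windows. RUNX letters were in 30.9% of all distal windows and NF-E2 letters in 7.80%. Among 32851 RefSeq promoters of 250 bases, 16.6% held GATA letters, 29.5% ETS, 14.05% RUNX and 4.46% NF-E2 letters. A match describes letters in a window and not a bound factor.

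**Figure D5:**
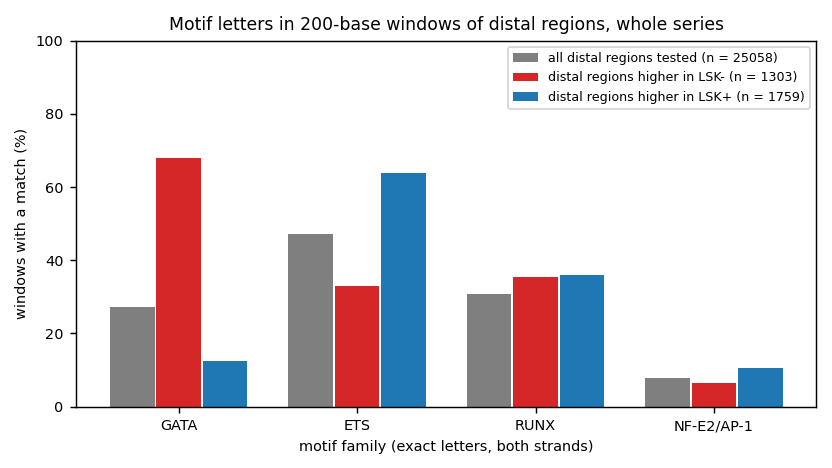
Share of 200-base windows around distal summits with at least 1 exact motif match (vertical axis, percent) for 4 motif families, over all 25058 distal regions and those higher in LSK- or in LSK+. GATA letters reach 68.1% in the LSK- group and 12.6% in the LSK+ group, and ETS letters run the other way.

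Other genes of the pathway, 46 in 4 classes, had 239 tested regions within 20 kb, of which 3 also lie in the Selp window. Of these, 21 were higher in LSK- (8.79%, against 3.94% of all regions) and 7 in LSK+ (2.93%, against 5.17%). Among receptors and adhesion proteins 3 of 45 regions were higher in LSK-, near Itga2 (a collagen receptor subunit, 13.2 ± 16.9 in LSK+ and 71.5 ± 3.32 in LSK-, SD, n = 4), Cd9 and Clec1b. The 2 higher in LSK+ were both near Itgb3, the integrin partner of Itga2b, at 55.2 ± 15.5 against 2.85 ± 5.70 and at 50.6 ± 13.3 against 0. Among granule genes 5 of 47 were higher in LSK- and none in LSK+. They lay near Nbeal2, needed for alpha granule formation (0 in LSK+, 68.0 ± 17.3 in LSK-), Mmrn1, Timp3 and Rab27b (2 regions).

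Transcription factor genes had 10 of 91 regions higher in LSK-, among them regions near Runx1 (3), Gata1 and Zfpm1 (2 each) and Fli1, and 3 higher in LSK+, near Zfpm1 (2) and Fli1. Zfpm1 (FOG-1, the partner of GATA-1) held regions that differed in opposite directions. One stood at 0 in LSK+ and 68.3 ± 9.08 in LSK-, and another at 67.6 ± 14.2 and 0, where 0 does not mean a closed site. The 2 Gata1 regions stood at 56.5 ± 10.8 and 40.4 ± 15.8 in LSK- and at 0 in all LSK+ libraries. Of the cytoskeletal and enzyme genes, 3 of 56 regions were higher in LSK-, near Tubb1 (platelet β1-tubulin, 0 and 71.7 ± 16.0), Myh9 and Fermt3, and 2 were higher in LSK+, near Myh9 and Tbxas1. Of the 37 promoters of this list that were tested, 1 was higher in LSK-, that of Timp3 (5.89 ± 4.78 in LSK+ and 59.3 ± 5.86 in LSK-, SD, n = 4), where 0.213% of all promoters were, and none was higher in LSK+ (0.281%).

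Markers of the other cells in the sorts were read in the same way. The summed promoter percentile of 8 erythroid genes ran from 88.2 to 157.7 in LSK+ and from 355.1 to 485.2 in LSK-, with Hba-a1 at 0 in all 8 libraries. Of their 7 tested promoters 1 passed, that of Car1 (carbonic anhydrase 1, 0 in LSK+ and 83.3 ± 8.51 in LSK-, SD, n = 4), and that of Klf1, an erythroid transcription factor, stood at 83.3 ± 7.14 in LSK+ and 72.0 ± 17.1 in LSK-. Of their 24 regions 4 were higher in LSK-, among them regions near Car1 and Alas2, and none in LSK+. The part of erythroid progenitors in the differences at Pf4, Gp9 and Vwf was not tested. The 8 stem cell markers summed to 202.2 to 391.5 in LSK+ and 157.9 to 377.8 in LSK-, with Ly6a (the gene of Sca-1, the antigen of the sort), Procr and Slamf1 at 0 throughout, while 3 of their 42 regions, near Mecom, Flt3 and Hoxa9, were higher in LSK+. Their sums split by replicate number in both cell types, at 157.9 to 231.3 in replicate 1 and 373.3 to 391.5 in replicate 2. Endothelial genes, which share Vwf and Selp with platelets, summed to 101.3 to 166.7 in LSK+ and 76.0 to 108.9 in LSK-, with Stab2 at 0, and 2 of their 23 regions were higher in LSK- and 3 in LSK+. The part of endothelial cells was not tested. Neutrophil and monocyte genes summed to 105.5 to 198.8 in LSK+ and 8.03 to 281.9 in LSK- (Fcgr3 at 0). In LSK- these sums were 49.2 (WT) and 8.03 (XistΔ/Δ) in replicate 1, and 281.9 (WT) and 232.9 (XistΔ/Δ) in replicate 2. Lymphoid genes summed to 76.4 to 145.7 in LSK+ and 45.4 to 113.9 in LSK- (Rag1, Cd3e, Pax5 and Cd79a at 0). None of the 28 neutrophil and monocyte regions or the 26 lymphoid regions passed.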

How the data were processed

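ATAC-seq, in which Tn5 transposase inserts adapters into open chromatin, was run on LSK+ and LSK- cells of WT and XistΔ/Δ females, with 2 libraries in each of 4 groups. The study calls them biological replicates without saying whether each came from its own mouse, so p-values measure the spread between these libraries.

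The authors trimmed reads (Trim Galore), aligned them to mm10 (Bowtie2 2.3.5.1), removed mitochondrial reads and reads of mapping quality under 30 (SAMtools 1.10) and called peaks per library (MACS2 2.2.7.1, paired-end, q of 0.01), per the study's methods and the submitters' processing notes. A control, duplicate removal and a Tn5 shift are not given in the sources used here. The deposited lists give a score, a fold enrichment (ratio), the −log10 p and the −log10 q of each peak, and the summit offset. They hold no read counts, so depth is unknown, and no interval for counting error could be given. Lists held 29829 to 91590 peaks on chromosomes 1 to 19 and X.

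Each list was cut to its 29829 strongest peaks by −log10 p, and percentiles were taken among them. Peaks of all libraries that overlapped by at least 1 bp were merged into regions, and a region without such a peak was set to 0. Regions and protein-coding promoters (best summit within 3 kb of a TSS) held by at least 2 libraries were fitted in limma 3.58.1 (R 4.3.3) as 4 group means, with Benjamini-Hochberg adjustment over all of them and a threshold of 0.05. The fit was tested on simulated data. Distances are from the summit of the strongest library to the nearest TSS of the member. Regions and genes named follow 1 rule: all 8 members, the 3 regions with the highest mean percentile, every region called, and genes of the other lists where called. Some genes of those lists count in the totals but are not reported here by name. Sequence is shown for called regions with a summit outside exons and over 1 kb from the TSS, the 2 distal regions with the highest mean and 4 promoters, a choice made after the values were seen. Further members' regions were named after their values were seen. The members and all lists were chosen with earlier results of these data known. Python 3.11.15 was used for the rest.

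Deviations from the group means correlated between same-numbered libraries in all 6 pairs of groups (0.164 to 0.521), and a fit with the replicate number as a block was therefore set beside the main one. Alternatives were all deposited peaks, the 14914 strongest peaks, ranking by fold, a −log10 q of at least 5, peaks covering 50% of a region, a 10 kb flank, a 1 kb promoter, leaving out regions near other genes' TSSs, regions listed in all 8 libraries, and leaving out each library. No reads, tracks or RNA were analysed here.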

Additional observations from a re-analysis of the deposited data

How the results depend on the processing

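Of the 4 member regions higher in LSK- and the 3 higher in LSK+, the counts became 3 and 0 over all deposited peaks, 0 and 0 among the strongest 14914 peaks, 2 and 1 when ranked by fold, 2 and 0 at a −log10 q of at least 5, 2 and 2 where peaks had to cover 50% of a region, and 0 and 0 among regions listed in all 8 libraries, where only 10 could be tested. They were 4 and 3 with the replicate block. Shares of all regions are not given for the alternatives of this section, so its counts describe the members only. Without 1 library each, the LSK- count ran from 0 to 6 and the LSK+ count from 2 to 3. The LSK- count was 0 without LSK+ WT replicate 1 or LSK+ XistΔ/Δ replicate 1, 1 without LSK- WT replicate 1, and 2 without LSK+ WT replicate 2, LSK+ XistΔ/Δ replicate 2 or LSK- XistΔ/Δ replicate 1. Adjusted p-values of calls lost this way ran from 0.0510 to 0.0942. None of the 7 regions changed sign under any alternative that gave a value. In the fits without 1 library this was fixed, because the cell types did not overlap at these regions.

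The 1 called promoter became 0 over all deposited peaks, the strongest 14914, ranking by fold, a −log10 q of at least 5 and promoters listed in all 8 libraries, and 0 to 0 without 1 library each. It became 2 with the replicate block, which added Gp9 and changed no other call. Counts of genotype calls and of differing contrasts were 0 under all alternatives run.

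Of regions present in one cell type only, the WT counts (4 in LSK-, 2 in LSK+) became 2 and 1 among the strongest 14914 peaks, 5 and 1 by fold and at a −log10 q of at least 5, and 2 and 3 with 50% coverage. The XistΔ/Δ counts (4 and 2) became 7 and 1 over all deposited peaks, 7 and 2 by fold, and 2 and 3 with 50% coverage. Without 1 library they ran from 4 to 7 and 2 to 6 in WT, and from 4 to 7 and 2 to 4 in XistΔ/Δ, with fewer libraries to hold or lack a peak.

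Values that changed sign, none of them called in either setting, were the Gp9 promoter within 1 kb (-46.9), Gp1ba +8.0 kb (0.691 over all peaks, 0.964 at a −log10 q of at least 5, 20.7 with 50% coverage), Gp1ba at its TSS (-4.55 with 50% coverage), Selp +20.3 kb (0.204 by fold), and the Itga2b intron and promoter (both 8.32 by fold). Without 1 library each, the Itga2b intron ran from -6.52 to 1.76 and its promoter from -6.52 to 1.09, Gp1ba +8.0 kb from -1.79 to 0.679, and Vwf +20.4 kb from -6.13 to 0.199. The cause of these changes was not tested. With 2 libraries a group and ranks in place of counts, small differences and genotype effects cannot be resolved.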

Other observations

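The Vwf gene body also held 3 regions that only 1 library had among its strongest peaks, which were noticed after their values were seen. A peak 87.6 kb from the TSS, in intron 27, was listed by all 4 LSK+ libraries, at whole-list percentiles of 30.5, 5.17, 26.3 and 13.5, and by no LSK- library. A peak at 108.7 kb, in intron 38, was listed by 3 LSK+ libraries, at 59.0, 62.3 and 31.5, and by 1 LSK- library, at 55.4. A peak at 125.7 kb, in intron 45, was listed by both LSK+ XistΔ/Δ libraries, at 59.2 and 55.1, and by 2 LSK- libraries, at 32.2 and 28.9. Among the strongest peaks of that 1 library, always an LSK+ one, they stood at 5.17, 12.9 and 4.92, and none was tested.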
